A study of Mus musculus with 6 samples.

Results

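This comparison sets 2 single-cell libraries of Müller glia cultures from mouse retina against each other, 1 transfected with let-7 antagomiR and miR-25 mimic (the double combination) and 1 labelled as having miR-124 mimic added to those RNAs (the triple combination). Their 6843 kept cells, 4084 in the library labelled triple and 2759 in the double library, are part of 23258 kept cells in 6 libraries. A cell was kept when it had at least 500 detected genes and at most 10% of its UMIs (unique RNA molecules counted) from mitochondrial genes. The count matrix of the double library ends early, so only the 3014 cells with a complete record among 5141 listed barcodes could be read, of which 2759 passed. The other libraries were labelled control RNAs, miR-124 mimic, miR-25 mimic and let-7 antagomiR, and each treatment had 1 library, so no difference below has a replicate check and no test between treatments was possible. Per the labels' protocols, papain-dissociated retinas were grown in neurobasal medium with serum, N2, glutamine and EGF. Lipofectamine delivered each RNA at 500 nM, so that the total RNA given was larger in the triple combination. The labels give neither the strain nor the age of the mice, nor how many retinas were pooled.

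Müller glia are the main glial cells of the retina. They take up glutamate, buffer potassium and water, recycle retinoids, and in fish, though hardly in mammals, they divide and make new neurons after injury. MicroRNAs guide Argonaute proteins to messenger RNAs through their seed, bases 2 to 8 of the mature strand, and lower the level or translation of those targets. The let-7 family holds down growth and developmental genes, miR-25 is abundant in progenitors, and miR-124 is a neuronal miRNA known for lowering genes of non-neuronal cells. An antagomiR is a modified antisense RNA that blocks a miRNA, and a mimic is a synthetic duplex that adds one. The comparison asks what miR-124 adds to the other RNAs in these glia.

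The miRNA strands that both libraries are labelled as blocking or adding are shown first, because genes with their target sites can be set against the labels. Capitals mark the seed, and the sequences and positions are from RefSeq on GRCm38.p6. The labels do not say which strand a mimic carries, and the 3p strand of miR-25 was assumed.
mmu-let-7a-5p: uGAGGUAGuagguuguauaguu
mmu-let-7b-5p: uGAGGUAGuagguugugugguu
mmu-let-7g-5p: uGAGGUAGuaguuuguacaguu
mmu-let-7i-5p: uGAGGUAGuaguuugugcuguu
mmu-miR-25-3p: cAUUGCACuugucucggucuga
mmu-miR-92a-3p: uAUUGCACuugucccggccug
The 4 let-7 strands share the seed GAGGUAG with 7 further mature miRNAs of the table, and miR-25-3p, read from chr5:138165332-138165353 on the minus strand, shares AUUGCAC with miR-92a-3p and 4 others.

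Sites pairing with these seeds were searched on the sense strand of the longest annotated 3′ UTR of 20911 genes (GENCODE vM21, GRCm38), as CTACCTC or TACCTCA for let-7 and GTGCAAT or TGCAATA for miR-25. Of those UTRs 14.87% held a let-7 site and 12.73% a miR-25 site. Below are 30-base windows, or shorter at a UTR's edge, around sites of known targets whose levels are described further on, with the 8-base match in capitals. They were chosen after the levels had been seen.
Dkk3, miR-25 site at chr7:112118163-112118192 (-): cactggtagatGTGCAATAgaaatggctaa
Bcl2l11, miR-25 site at chr2:128162438-128162467 (+): ccactgtacctGTGCAATActgctgtaaat
Btg2, miR-25 site at chr1:134076312-134076341 (-): tctcagtcactGTGCAATAgtcccaggatg
Fbxw7, miR-25 site at chr3:84979160-84979189 (+): ttataacttaaGTGCAATAaaatgtgtttt
Hmga2, let-7 site at chr10:120364213-120364242 (-): acattcaatttCTACCTCAgcatcagttgg
Fas, let-7 site at chr19:34327325-34327346 (+): aaaCTACCTCAgttccagccat
Igf1r, let-7 site at chr7:68229114-68229143 (+): caaacatttatCTACCTCActcttgttttt
Gas7, let-7 site at chr11:67684039-67684068 (+): tcagaatggaaCTACCTCAgttggcacaaa
The UTR of Hmga2 holds 7 let-7 sites and that of Igf1r 3, while Dkk3 has a single miR-25 site near the start of its UTR, at base 30.

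After removal of doublets called by Scrublet, 4078 cells of the library labelled triple and 2721 of the double library were clustered with those of the other libraries and named from marker genes. The double library had a median of 3795 UMIs per kept cell and the library labelled triple 4579. Scrublet marked 1.377% of cells in the double library but 0.1469% in the library labelled triple. It marked 0.1106% in the control, 0.1935% with miR-25 mimic, 2.174% with let-7 antagomiR and 3.057% in the library labelled miR-124. Doublets may remain where few were marked, and how many was not tested. These 2 libraries shared 18 cell barcodes. Müller-like cells fell into 3 clusters that were filled very unequally. The cluster led by Rlbp1, in which 18 of 22 Müller markers stood 2-fold or more above the median cluster, held 1756 cells labelled triple and 5 of the double library. The cluster led by Grem1, with 7 of 22 markers, held 73 and 906, and the cluster led by Lcn2, with 13 of 22 markers, held 427 and 466. Differences over all Müller-like cells thus compare mostly the Rlbp1-led cluster with the Grem1-led cluster. Values from the Lcn2-led cluster, which both libraries filled about equally, are therefore given beside most of them. Clusters were drawn from these same expression values, so smaller differences inside that cluster follow in part from how it was made.

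Müller-like cells made up 55.3% of cells labelled triple (exact 95% binomial interval 53.8% to 56.9%) and 50.6% of the double library (48.7% to 52.5%). Fibroblast- or mesenchymal-like cells made up 22.3% and 28.2%, and neuron- or progenitor-like cells 2.16% (1.73% to 2.65%) and 3.31% (2.67% to 4.05%). The intervals overlapped for pericyte- or smooth-muscle-like cells, at 5.25% (4.58% to 5.98%) and 6.54% (5.64% to 7.54%), astrocyte-like cells, at 7.33% and 7.20%, and microglia- or macrophage-like cells, at 2.40% and 2.57%. An unnamed cluster led by Rgs5 with markers of several classes held 173 cells labelled triple and 16 of the double library. The intervals of all shares cover counting error only. The order of the neuron-like and pericyte-like shares was not stable: with at most 5% mitochondrial UMIs they were 1.75% and 9.98% labelled triple and 1.0% and 8.35% in the double library. Fibroblast-like cells had a median of 6953.5 UMIs labelled triple and 3426 in the double library, while Müller-like cells had 3694.5 and 3900, so depth differed by class. The Müller shares depended on cell quality and clustering: with at most 5% mitochondrial UMIs they were 19.3% and 19.6%, and at a finer clustering the double share was 27.9%.

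Genes with miR-25 sites differed between the 2 libraries, although both labels name the miR-25 mimic, and the cause was not tested. In Müller-like cells the 1087 measured genes with a miR-25 site had a median log2 ratio, labelled triple over double, of 0.29, and the 5670 without one 0.03, a difference of 0.253 where both libraries are labelled with the same mimic. Within 3 equal-sized bins of UTR length the difference was 0.112 for short, 0.178 for middle and 0.182 for long UTRs. It was 0.144 in the Lcn2-led cluster, 0.129 in astrocyte-like, 0.126 in neuron- or progenitor-like and 0.102 in microglia-like cells. In fibroblast-like cells it was 0.00256 and in pericyte-like cells -0.0612. Against the control library the double library had miR-25 site genes lower by a difference of -0.177 in Müller-like cells, and the library labelled triple had 0.0735. Both of these values share the control library. For short, middle and long UTRs they were -0.218, -0.121 and -0.102 in the double library and -0.0269, 0.0301 and 0.0451 labelled triple. With miR-25 mimic alone the overall value was -0.113, and the bins gave -0.156, -0.0791 and -0.0857. In the library labelled miR-124, whose label names no miR-25, it was 0.0759, and the bins gave -0.0238, 0.0394 and 0.0544. Fibroblast-like cells gave overall values of -0.0573 in the double library, -0.053 labelled triple and -0.0364 in the library labelled miR-124.

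Genes with let-7 sites differed the other way once UTR length was held. Their difference between the libraries was 0.053 in Müller-like cells as a whole, but -0.142, -0.0785 and -0.0125 in the short, middle and long bins, so its sign changed once UTR length was held. In the Lcn2-led cluster the same bins gave -0.213, -0.0576 and -0.0468, and in astrocyte-like cells -0.283, -0.0808 and -0.00609. Against the control library, which the next values share, the short, middle and long bins gave 0.175, 0.112 and 0.0352 in the double library, and 0.0844, 0.00431 and 0.0112 in the library labelled triple. With let-7 antagomiR alone they gave 0.148, 0.0539 and 0.0369. The library labelled miR-124, whose label names no antagomiR, gave 0.242, 0.0707 and 0.0757, above the antagomiR alone in each bin. With miR-25 mimic alone the bins gave 0.00448, -0.00136 and -0.00182. The let-7 site genes were thus positive in each bin with every antagomiR label, but also in the library labelled miR-124. They did not follow the antagomiR labels alone and do not check them. The cause was not tested, and differences below cannot be assigned to miR-124 alone. For that reason the word "labelled" is kept for this library.

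**Figure D1:**
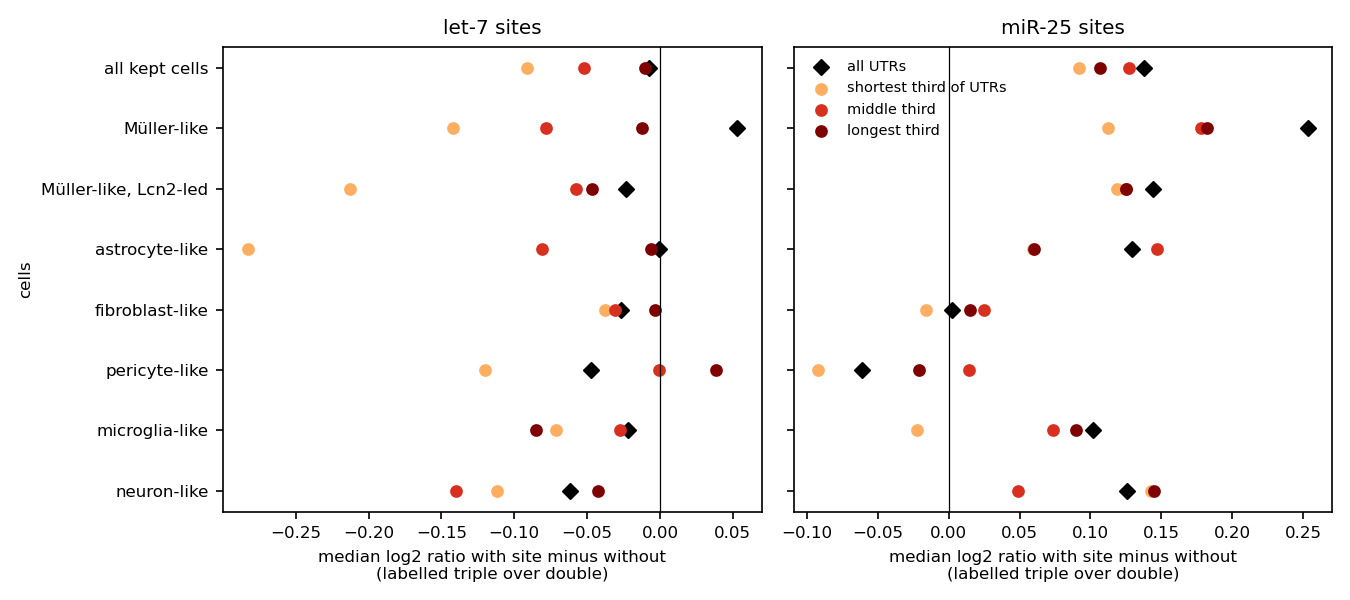
Each point is the median log2 ratio (labelled triple over double) of genes with a site minus that of genes without it, for let-7 (left) and miR-25 (right), in each kind of cell (rows); diamonds use all UTRs and circles the 3 bins of UTR length. The miR-25 differences lie above 0 in Müller-like cells at 0.112 to 0.253, and let-7 differences within bins lie mostly below 0.

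Known targets of miR-25 went the way of its sites. Of 24 measured literature targets of miR-25, 11 were at least 1.5-fold higher in Müller-like cells labelled triple and 2 lower, with a median log2 ratio of 0.48, against 18.6% of all genes higher and 13.4% lower and an all-gene median of 0.08. Within the Lcn2-led cluster 7 of 22 were higher and 2 lower, with a median of 0.44, against 8.23% and 6.72%. Dkk3, which encodes a secreted modulator of Wnt signalling, stood at 1977 CPM (UMIs of the gene per 1000000 UMIs of the class; 95% counting interval 1948 to 2006) labelled triple and 968 CPM (943 to 994) in the double library. The control had 1765 CPM of Dkk3, let-7 antagomiR 1730, miR-25 mimic 842 and the library labelled miR-124 2254. Dkk3 was thus low with miR-25 mimic and with the double combination, and high in the remaining 4 libraries. Insig1, a brake on cholesterol synthesis, stood at 126 and 61.2 CPM, against 159 in the control and 86.3 with miR-25 mimic. The cell death gene Bcl2l11 stood at 99.9 and 43.5 CPM, the antiproliferative gene Btg2 at 1156 and 625 CPM, and Fbxw7, a ubiquitin ligase subunit, at 65.2 and 30.9 CPM. Mdm2 and Smad7 were the 2 lower members.

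Of 20 measured let-7 targets, 1 was higher and 7 lower, with a median of -0.28, where 13.4% of all genes were lower. Within the Lcn2-led cluster 1 of 18 was higher and 2 lower, with a median of -0.33, where 6.72% of all genes were lower. Hmga2, an oncofetal chromatin protein, stood at 6.81 CPM labelled triple and 38.5 CPM in the double library, with 29.6 in the control and 29.0 with let-7 antagomiR. It had 14.5 CPM with miR-25 mimic and 14.5 in the library labelled miR-124. The highest Hmga2 was thus in the double library and the lowest in the library labelled triple, with counting intervals of 33.6 to 44.0 and 5.22 to 8.72 CPM that did not overlap. Its log2 ratio in the Lcn2-led cluster was -0.39. Fas, a death receptor that is also a p53 target, stood at 32.7 and 109 CPM, Gas7 at 16.6 and 39.2 CPM, and the growth factor receptor Igf1r at 187 and 221 CPM. Lin28b, which blocks let-7 maturation, had 0 UMIs in Müller-like cells labelled triple and a single UMI in the double library, so a difference was not detectable at this depth.

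Müller-like cells differed in many genes. With counts summed over the 2256 cells labelled triple (9110978 UMIs) and the 1377 of the double library (5635770 UMIs), 6867 genes reached 20 CPM in 1 or both of them. On the log2 scale of CPM + 5, 519 genes (7.56%) were at least 2-fold higher labelled triple and 347 (5.05%) at least 2-fold lower. Over all kept cells the counts were 212 (3.14%) and 106 (1.57%), and within the Lcn2-led cluster 116 (1.77%) and 84 (1.28%). The number of 2-fold genes was thus smaller among cells of the same cluster, which follows in part from how clusters are drawn. The pseudocount of 5 CPM draws the ratios of low genes towards 0.

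**Figure D2:**
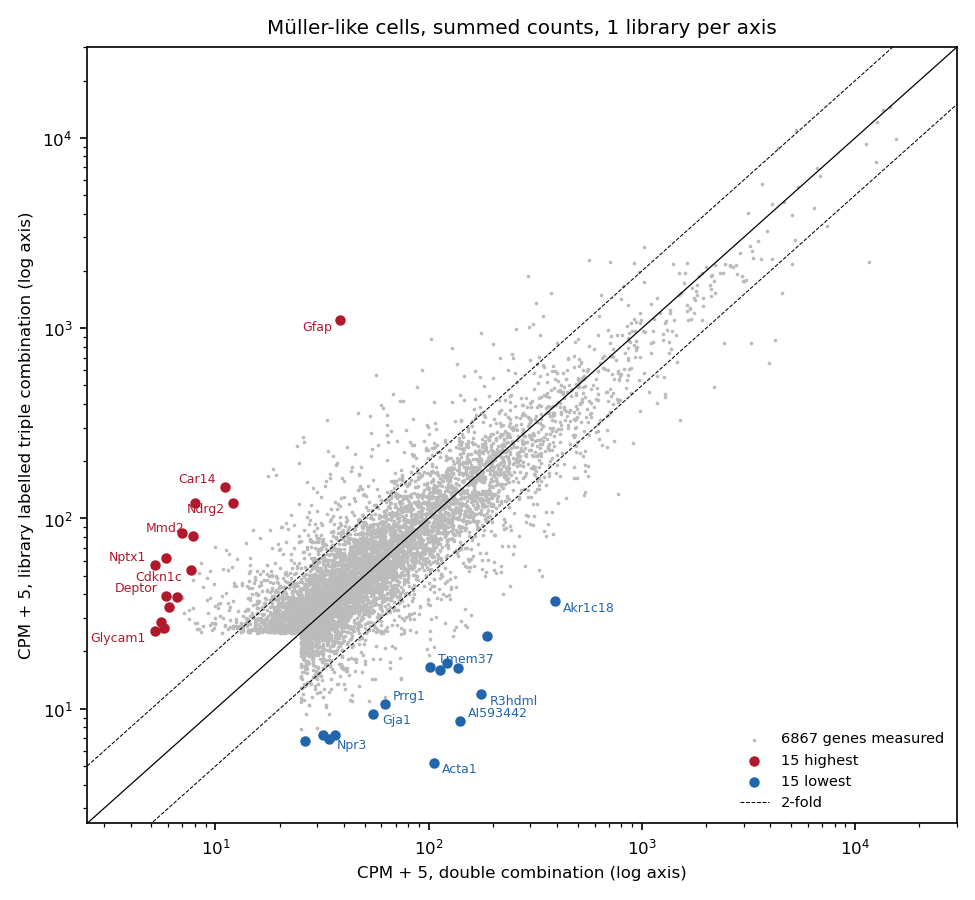
Each grey point is 1 of 6867 genes in Müller-like cells, with its CPM + 5 in the double library (x axis) and in the library labelled triple (y axis), both on log axes; red and blue points are the 15 genes named as highest and the 15 named as lowest. Gfap stands far above the 2-fold line at 1096 against 33.4 CPM, and Acta1 far below it at 0.220 against 100.8 CPM.

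Among the 15 genes named as highest was Gfap, the intermediate filament of astrocytes and of stressed Müller glia (chr11:102887336-102900912). It stood at 1096 CPM (1075 to 1118) labelled triple and at 33.4 CPM (28.8 to 38.5) in the double library. The library labelled miR-124 had 457 CPM, and control, let-7 antagomiR and miR-25 mimic had 45.3, 67.2 and 76.9. The 2 libraries labelled with miR-124 were thus apart from the other 4. In the Lcn2-led cluster Gfap stood at 189 and 47.6 CPM, a log2 ratio of 1.88 where all Müller-like cells gave 4.84. After each cell had been thinned to 2000 UMIs, 58.1% of 2205 Müller-like cells labelled triple (56.0% to 60.2%) and 5.66% of 1220 in the double library (4.43% to 7.10%) had a Gfap UMI, or 68.5% and 8.42% without thinning. In thinned microglia-like cells, which should lack it, 5.26% and 1.64% had one, with median depths of 6995 and 3972 UMIs. The thinned shares in the Lcn2-led cluster were 21.7% and 6.70%.

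Of 26 measured Müller glia genes, 18 were at least 1.5-fold higher labelled triple and 3 lower, with a median log2 ratio of 1.08, where 18.6% of all genes were higher and 13.4% lower. This list also served to name the clusters, so its direction is no independent result, and in the Lcn2-led cluster 8 of 25 were higher and 1 lower, with a median of 0.48, where 8.23% of all genes were higher and 6.72% lower. Rlbp1, a carrier of retinoids in the visual cycle, stood at 565 CPM labelled triple and 51.8 in the double library, with 89.0 in the control, 108 with miR-25 mimic and 79.6 with let-7 antagomiR. The library labelled miR-124 had 412 CPM of Rlbp1. The glutamine synthetase gene Glul stood at 781 and 123.9 CPM, with 99.4 in the control and 320 in the library labelled miR-124. Car14, a carbonic anhydrase of Müller glia, stood at 141 and 6.03 CPM, and Clu, a secreted chaperone, at 872 and 98.0 CPM. Rlbp1 and Glul were high in both libraries labelled with miR-124 and low in the others, as was Car14, at 83.1 CPM in the library labelled miR-124 and 5.91 to 15.5 CPM in the remaining 3. The log2 ratios of Rlbp1, Glul and Car14 in the Lcn2-led cluster were 0.71, 0.52 and 0.49, against 3.33, 2.61 and 3.73 over all Müller-like cells. Slc6a6, a taurine carrier, Car2, another carbonic anhydrase, and the filament gene Vim were the 3 lower members, at log2 ratios of -1.56, -1.10 and -0.77.

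Genes of the glial housekeeping functions went with them. Of 12 measured genes of glutamate and GABA handling, 7 stood 1.5-fold or more higher and 2 lower (median 1.21; all genes 18.6% higher and 13.4% lower). The GABA carrier Slc6a11 stood at 59.7 and 6.57 CPM, and the glutamate carrier Slc1a3 at 1158 and 339 CPM. The cystine and glutamate exchanger Slc7a11 was lower, at 128 and 529 CPM. Of 10 genes of ion, water and pH balance, 7 were higher and 1 lower (median 1.245), among them Atp1b2, a sodium pump subunit, at 262 and 20.8 CPM, and the potassium channel Kcnj10 at 85.2 and 15.3 CPM. In the Lcn2-led cluster the first list had 3 genes higher and 3 lower of 12 (median 0.31) and the second 4 higher and 1 lower of 9 (median 0.49), against 8.23% and 6.72% of all genes there.

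Progenitor genes were higher as well. Of 18 measured neurogenic progenitor genes, 13 stood 1.5-fold or more higher and 1 lower (median 0.98), and in the Lcn2-led cluster 5 of 17 were higher and 0 lower (median 0.36). Of all genes 18.6% were higher and 13.4% lower in Müller-like cells, and 8.23% and 6.72% in that cluster. Rgs16, a regulator of G protein signals, stood at 163 and 14.2 CPM, the bHLH gene Hes6 at 207 and 30.7 CPM, the eye field factor Rax at 39.7 and 11.4 CPM, and Neurog2, a proneural transcription factor, at 23.2 and 4.61 CPM. Gadd45a was the lower member, at 124.1 and 193 CPM. Hes6 had 134 CPM in the library labelled miR-124 and 41.5 to 55.9 CPM in the other 3, so that both libraries labelled with miR-124 were the highest. Its thinned share of Müller-like cells was 27.4% labelled triple (25.6% to 29.4%) and 4.92% in the double library (3.77% to 6.29%), or 40.1% and 9.95% unthinned. The thinned shares of microglia-like cells were 8.42% (3.71% to 15.9%) and 3.28% (0.3996% to 11.4%), so the share in the double library lay within the bounds of this background. The thinned shares with a Hes6 UMI in the Lcn2-led cluster were 10.02% (7.32% to 13.3%) and 5.46% (3.45% to 8.15%), with overlapping intervals, and its levels were 65.3 and 31.9 CPM.

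Of 12 measured Notch pathway genes, 6 were higher and 0 lower (median 0.61), and in the Lcn2-led cluster 5 of 11 were higher and 0 lower (median 0.56), where the shares of all genes higher were 18.6% and 8.23%. This list shares Hes6 and the ligand gene Dll1 with the progenitor list. The receptor gene Notch1 stood at 305 and 93.3 CPM, Dll1 at 35.7 and 10.5 CPM, the feedback inhibitor Nrarp at 21.3 and 3.19 CPM, and Id2, an inhibitor of bHLH factors, at 191 and 19.7 CPM. The effector Hes1 stood at 41.8 and 32.1 CPM, a log2 ratio of 0.335 that was -0.02 over all kept cells. Hes5, the other classical effector, had 91 UMIs labelled triple and 4 in the double library, under the level filter, and was most abundant in the library labelled miR-124, at 29.8 CPM.

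Later neuronal genes were mixed in Müller-like cells. Of 13 measured genes of the neuronal list, 3 were higher and 2 lower (median 0.20), shares near the 18.6% and 13.4% of all genes. In the Lcn2-led cluster 5 of 14 were higher and 1 lower (median 0.44), against 8.23% and 6.72%. The microtubule-associated proteins Mapt, at 46.4 and 3.37 CPM, and Map2, at 107 and 31.9 CPM, and Cplx2, a synaptic vesicle protein, at 88.3 and 31.1 CPM, were the higher ones. The lower ones were Stmn2, a neuronal stathmin, at 286 and 677 CPM, and the transcription factor Tfap2a, at 35.3 and 80.7 CPM. Stmn2 had the opposite sign in the Lcn2-led cluster, at 605 and 434 CPM, and its thinned share of Müller-like cells was 24.8% labelled triple and 53.3% in the double library (33.3% and 63.9% unthinned), against 1.05% and 4.92% of microglia-like cells. The neuronal tubulin gene Tubb3 stood at 27.1 and 22.9 CPM, with thinned shares of 4.26% and 4.10%, and at 32.7 and 9.03 CPM in the Lcn2-led cluster. Doublecortin (Dcx) had 3 UMIs and 0, Neurod1 1 and 2, Otx2 0 and 2, and Rbfox3 0 and 2, so differences in these neuronal and photoreceptor genes were not detectable at this depth.

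**Figure D3:**
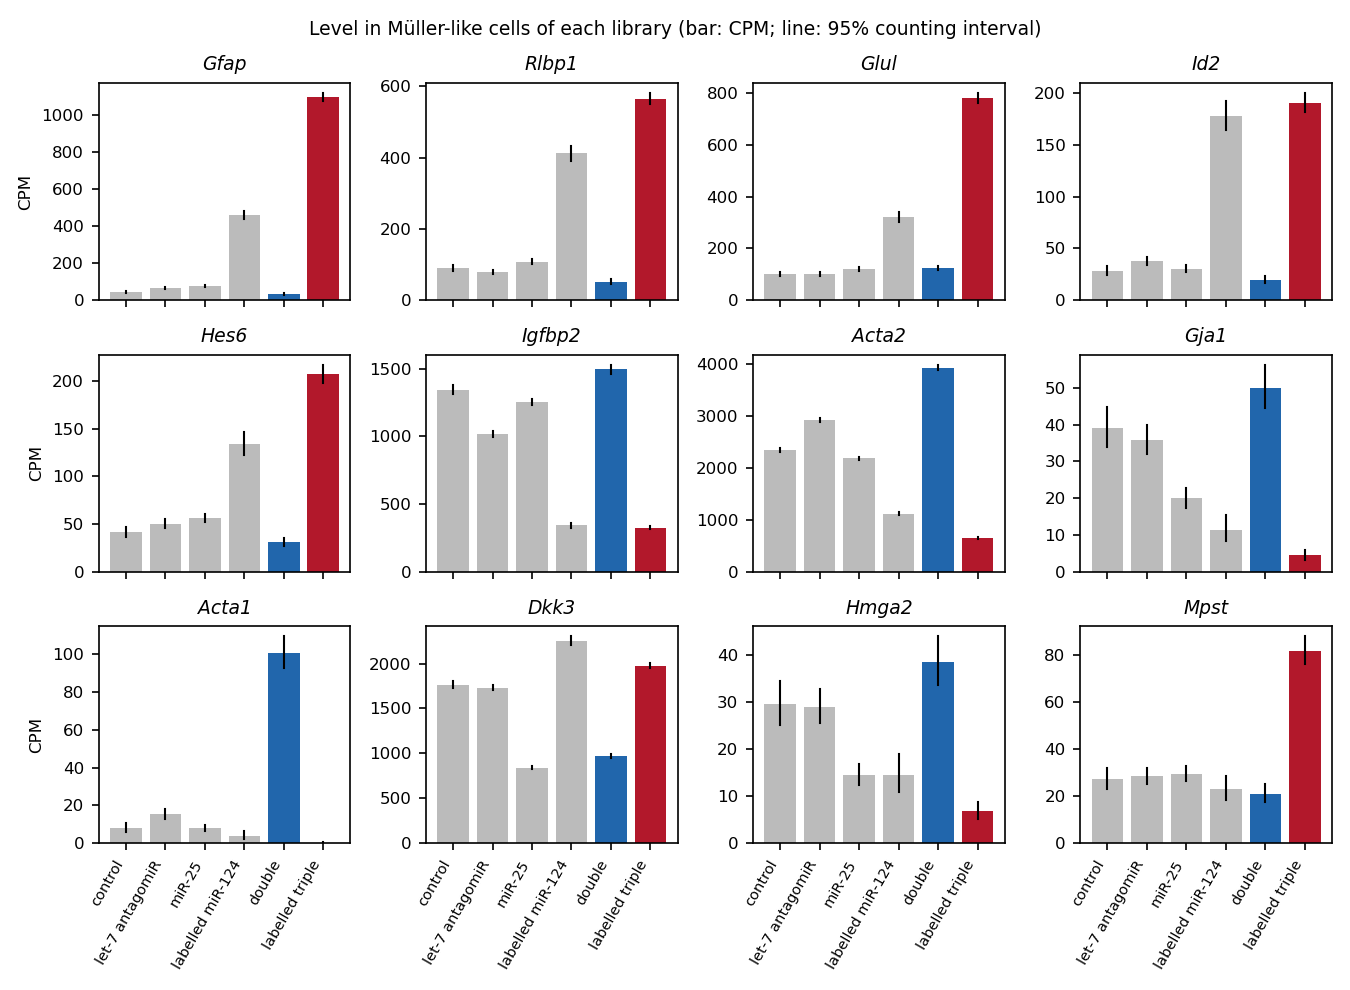
CPM in Müller-like cells of each of the 6 libraries (bars; the line is the 95% counting interval) for 12 genes, with the double library in blue and the library labelled triple in red. Gfap, Rlbp1, Glul, Id2 and Hes6 are high and Igfbp2 and Acta2 low in the 2 libraries labelled with miR-124, Acta1 is high in the double library alone, and Mpst is high in the library labelled triple alone.

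The lowest named genes included some that were high in the double library against all other libraries, some that were low in the library labelled triple against all others, and some that were both. Acta1, the skeletal muscle actin gene (chr8:123891769-123894751), had 2 UMIs labelled triple, or 0.220 CPM (0.0266 to 0.793), and 568 UMIs in the double library, or 100.8 CPM (92.7 to 109). The other libraries ran from 3.60 CPM in the one labelled miR-124 to 15.4 CPM with let-7 antagomiR. The counting interval of the log2 ratio ran from -11.89 to -6.98. It stood at 0.510 and 172 CPM in the Lcn2-led cluster. AI593442 stood at 3.62 and 135 CPM, with 67.8 with let-7 antagomiR, 19.1 in the control, 12.6 with miR-25 mimic and 20.3 in the library labelled miR-124. R3hdml stood at 6.92 and 172 CPM, with 18.9 in the control and 75.7 with miR-25 mimic, and Akr1c18, a steroid-converting enzyme, at 31.7 and 384 CPM, with 99.9 in the control. Of the 15 genes named as lowest, 10 were 1.5-fold or more higher in the double library than in each of the 5 others (0.903% of all genes were), and 11 as much lower in the library labelled triple than in each of the 5 others (1.69%). Since these genes were chosen by this same contrast, nothing is read from the excess. Acta1 and AI593442 stood apart in both ways.

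Of the 15 named as highest, 8 were 1.5-fold or more higher in the library labelled triple than in each of the 5 others (1.85% of all genes were), namely Gfap, Car14, Adam11, Ndrg2, Deptor, Reep6, Gpd1 and Glycam1. Of the same 15, 9 were that much lower in the double library than in each other one (2.2% of all genes). These genes too were chosen by this same contrast, so nothing is read from either excess. The synaptic pentraxin gene Nptx1 had 473 UMIs labelled triple and a single UMI in the double library, with a counting interval of the log2 ratio of 5.71 to 13.5. It stood at 46.2 CPM in the library labelled miR-124 and between 0.682 and 1.004 CPM in the other 3. Pcdh15, a cadherin of hair cells and photoreceptors, stood at 57.1 and 0.887 CPM, Adam11 at 78.6 and 1.95 CPM, Mmd2 at 76.2 and 2.84 CPM, and Cdkn1c, a cell cycle inhibitor and known miR-25 family target, at 48.3 and 2.66 CPM. Nptx1 and Pcdh15 had log2 ratios of 0.59 and 0.05 in the Lcn2-led cluster, where they stood at 2.55 and 2.04 CPM labelled triple.

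Of the 31 lists, that of actin and contractile genes had the most lower members, although 4 lists of fewer genes (Igf, collagen, chemokines and p53 targets) had lower medians. Of 35 measured genes, 24 were at least 1.5-fold lower labelled triple and 1 higher (median log2 ratio -0.75), where 13.4% of all genes were lower. Within the Lcn2-led cluster 10 of 34 were lower and 1 higher (median -0.13), against 6.72% of all genes lower. Acta2, the smooth muscle actin gene, stood at 650 and 3936 CPM, with 1118 in the library labelled miR-124. The remaining 3 had 2185 to 2923 CPM. Tagln, an actin-binding protein of smooth muscle, stood at 487 and 2178 CPM, tropomyosin Tpm1 at 856 and 4213 CPM and Tagln2 at 22.5 and 143 CPM. The integrin gene Itgav was the higher member. Pericyte or smooth muscle markers summed to 1196 CPM labelled triple and 6188 CPM in the double library, nearly all from Acta2 and Tagln. Of the other markers, Pdgfrb stood at 34.79 and 25.02 CPM, Cnn1 at 9.329 and 29.99 CPM and Rgs5 at 6.81 and 6.57 CPM. Kcnj8, Abcc9 and Higd1b were near or at 0 in both, and the remaining markers lay below Rgs5 in both.

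Of 28 measured collagen and matrix genes, 19 were lower and 1 higher (median -0.87; 13.4% of all genes were lower), with basement membrane collagen Col4a2 at 39.0 and 234 CPM and the matricellular protein gene Thbs1 at 35.1 and 217 CPM. The median was 0.02 in the Lcn2-led cluster and 0.07 over all kept cells. Even so, 6 of 27 (22.2%) were lower and 1 higher in that cluster, where 6.72% of all genes were lower. Of 9 genes for Igf and its binding proteins, 5 were lower and 0 higher (median -0.91), and in the Lcn2-led cluster 3 of 8 were lower (median -0.51). Igfbp2, a binding protein for insulin-like growth factors, stood at 325 CPM (313 to 337) labelled triple and 1498 CPM (1467 to 1531) in the double library, and at 342 in the library labelled miR-124. The other 3 libraries had 1016 to 1347 CPM of Igfbp2. Its thinned share of Müller-like cells was 22.7% and 84.5% (30.9% and 89.3% unthinned), against 2.11% and 4.92% of microglia-like cells. The gap was smaller in the Lcn2-led cluster, with thinned shares of 57.5% and 73.4% and levels of 699 and 995 CPM of Igfbp2. The gap junction gene Gja1 stood at 4.39 and 50.04 CPM, with 39.0 in the control and 11.4 in the library labelled miR-124.

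Stress and immune groups were lower in Müller-like cells, of which only the p53 list kept most of its median in the Lcn2-led cluster. Of all genes 13.4% were lower and 18.6% higher in Müller-like cells, and 6.72% and 8.23% in that cluster. Of 19 measured p53 targets, 12 were lower and 2 higher (median -0.84), and in the Lcn2-led cluster 7 of 19 were lower and 0 higher (median -0.54). The cell cycle inhibitor gene Cdkn1a stood at 432 and 1276 CPM, Mdm2, which degrades p53, at 97.5 and 288 CPM, and the death gene Pmaip1 at 13.2 and 53.8 CPM. Of 23 genes of the unfolded protein and integrated stress responses, 10 were lower and 3 higher (median -0.53), of 17 interferon and antigen presentation genes 8 and 1 (-0.49), of 25 lysosome genes 11 and 1 (-0.56), and of 7 chemokines and cytokines 5 and 0 (-0.85). Their medians in the Lcn2-led cluster were 0.04, 0.10, -0.19 and -0.04, with 4.35%, 16.7%, 8.0% and 28.6% of their members lower. Nupr1, a stress-induced nuclear protein, stood at 835 and 3223 CPM over all Müller-like cells and at 1667 and 1664 CPM in that cluster. The monocyte attractant Ccl2 stood at 10.98 and 108 CPM, with 81.5 with miR-25 mimic and 27.9 to 31.0 in the rest.

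Immediate early genes were higher. Of 17 measured, 11 stood 1.5-fold or more higher and 1 lower (median 0.89), and in the Lcn2-led cluster 8 of 18 were higher and 0 lower (median 0.57), where the shares of all genes higher were 18.6% and 8.23%. Zfp36, an mRNA-destabilising protein, stood at 232 and 36.6 CPM, Fosb at 268 and 58.9 CPM, Jun at 691 and 211 CPM and Fos at 1480 and 637 CPM, and Fosl2 was lower at 35.0 and 112 CPM. Of 23 oxidative stress and metallothionein genes, 8 (34.8%) were higher and 3 (13.0%) lower (median 0.39), the lower share being near the 13.4% of all genes. In the Lcn2-led cluster 10 of 23 were higher and 1 lower (median 0.55). Mt3, the brain metallothionein, stood at 1005 and 290 CPM and the peroxidase gene Prdx6 at 2228 and 704 CPM.

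Literature targets of miR-124 were more often lower than higher, but their median lay near 0 in the Lcn2-led cluster. Of 38 measured in Müller-like cells, 12 were at least 1.5-fold lower labelled triple and 4 higher (median -0.26). Among all genes 13.4% were lower and 18.6% higher. In the Lcn2-led cluster 4 were lower and 1 higher of 38 (median 0.02), where 6.72% of all genes were lower and 8.23% higher. Tagln2 was the lowest member after Ccl2. The vesicle protein gene Vamp3 stood at 34.4 and 115 CPM, and at 60.7 and 102 CPM in the Lcn2-led cluster. Itgb1, an integrin subunit and textbook miR-124 target, stood at 145 and 348 CPM, with 224 in the library labelled miR-124, 347 with miR-25 mimic, 549 in the control and 578 with let-7 antagomiR. Among cells of the Lcn2-led cluster Itgb1 had the opposite sign, at 304 and 248 CPM. Lamc1, a laminin chain gene, likewise stood at 33.6 and 55.4 CPM overall and at 60.7 and 47.0 CPM in that cluster. Notch1, Bcl2l11, Sox9 and Stat3 were the 4 higher members, with Sox9, a glial transcription factor, at 250 and 136 CPM.

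The splicing repressor Ptbp1, whose loss is part of the neuronal switch by miR-124, was not lower, at 52.1 CPM labelled triple and 38.3 CPM in the double library. Its neuronal paralog Ptbp2 stood at 85.7 and 32.8 CPM, with 104 in the library labelled miR-124 and 38.3 to 45.5 in the other 3, and its log2 ratio in the Lcn2-led cluster was 0.21. Rest, a repressor of neuronal genes, stood at 97.2 and 71.2 CPM. Of 16 measured genes of the Ptbp, Rest and splicing list, 1 was higher and 1 lower, fewer in share than among all genes. The lower one was Ptbp3, at 21.8 and 50.8 CPM.

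Genes of the G1 phase split. Of 12 measured D cyclins, G1 kinases and inhibitors, 5 were higher and 5 lower (median -0.02), where 18.6% and 13.4% of all genes were. Ccnd2 stood at 399 and 1167 CPM and Ccnd1 at 359 and 701 CPM, both lower. The inhibitor genes went both ways: Cdkn1c, given above, and Cdkn1b, at 247 and 76.3 CPM, were higher, and Cdkn1a, given above, and Cdkn2b, at 150.5 and 234 CPM, were lower. Ccnd1 stood at 745 and 720 CPM in the Lcn2-led cluster, while Cdkn1b still stood at 205 and 84.9 CPM. Mki67, a proliferation marker, was at 1.98 and 2.31 CPM. The reactive gliosis list went both ways, with 6 of 17 higher and 4 lower (median -0.05). The protease inhibitor genes A2m, at 727 and 240 CPM, and Serpina3n, at 38.2 and 9.40 CPM, were higher, and Lcn2 itself stood at 382 and 426 CPM. Of 5 intermediate filament genes Gfap alone was higher, and Lmna, Vim and Nes were at least 1.5-fold lower (median -0.71). Among cells of the Lcn2-led cluster 0 of the 5 were that much lower (median -0.09), and Gfap was higher.

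**Figure D4:**
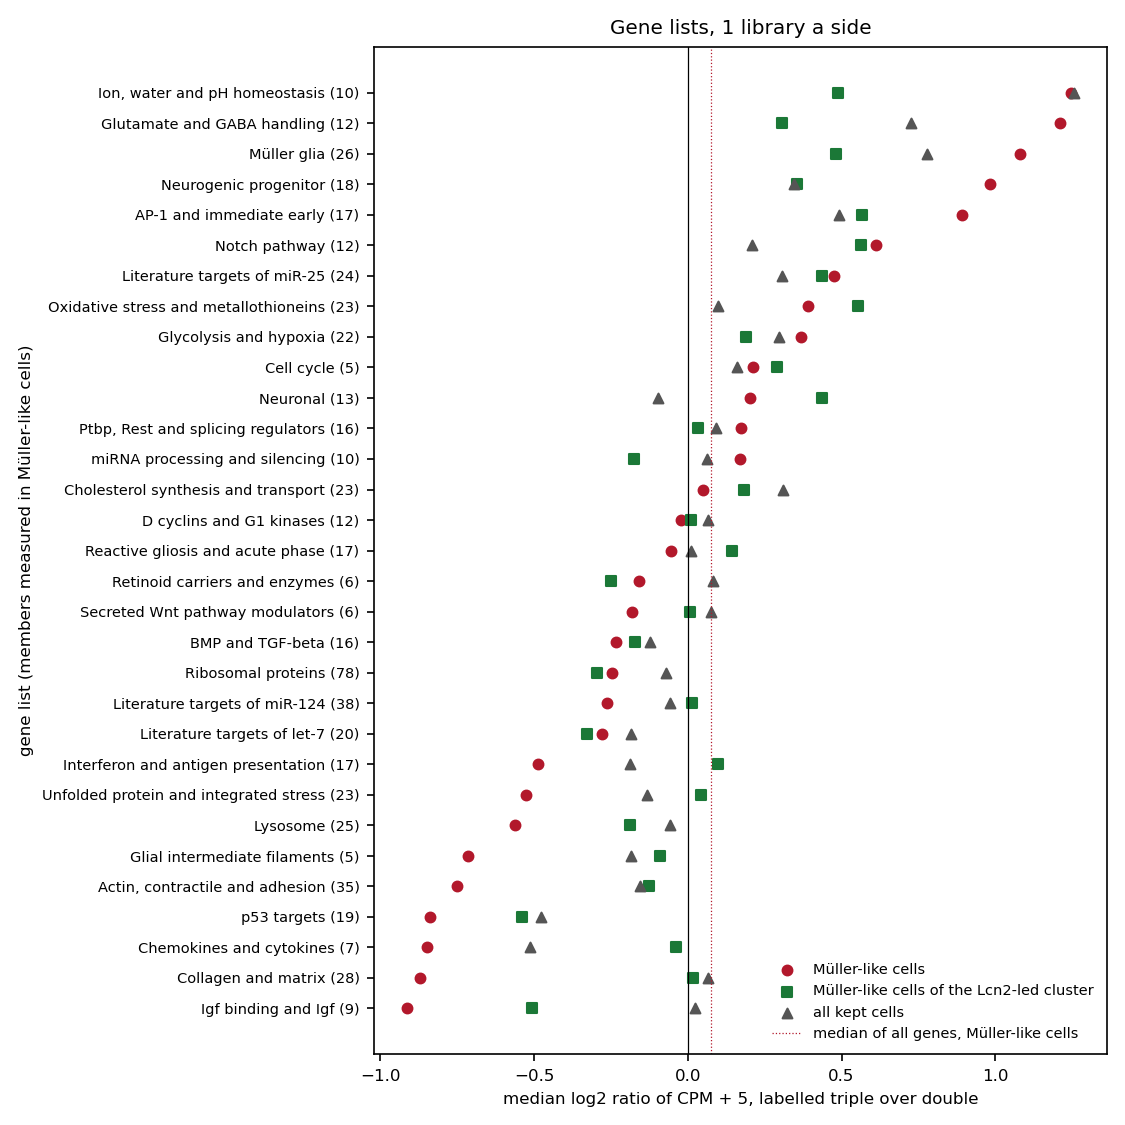
Median log2 ratio (labelled triple over double, x axis) of the measured members of each of 31 gene lists (rows, with the number measured) in Müller-like cells (circles), in Müller-like cells of the Lcn2-led cluster (squares) and over all kept cells (triangles). The Müller glia, progenitor and immediate early medians stay above 0 in all 3 and p53 targets below 0, while the collagen median moves from -0.87 to 0.02 in the Lcn2-led cluster.

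The other classes differed less or with less depth. Fibroblast-like cells (908 and 766 cells) had 47 genes at least 2-fold higher labelled triple (0.77%) and 30 lower (0.491%), and pericyte-like cells (214 and 178) had 77 (1.2%) and 91 (1.42%). Astrocyte-like cells (299 and 196) had 431 (6.5%) and 175 (2.64%). Microglia-like cells (98 and 70) had 438 (7.58%) and 262 (4.54%), and neuron- or progenitor-like cells (88 and 90) 603 (8.17%) and 715 (9.68%). The median counting interval of a gene's log2 ratio spans 1.09 to each side in microglia-like and 1.13 in neuron-like cells, against 0.23 in Müller-like cells, so a 2-fold ratio of a typical gene lies within counting error in those 2 classes.

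Astrocyte-like cells shared part of the Müller pattern. The Müller glia list had 17 of 22 genes at least 1.5-fold higher and 1 lower in them (median 1.19), against 18.8% and 8.58% of all genes. Aldoc, a brain glycolytic enzyme, had a log2 ratio of 3.60 there, Rlbp1 3.30 and Gfap 1.82, and the actin list 0 higher and 15 lower of 33 (median -0.52). Astrocyte markers summed to 2225 CPM labelled triple and 647 CPM in the double library among Müller-like cells, of which Gfap, Aldoc and Aqp4 made up the greater part, while the astrocyte factor Pax2 stood at 0.110 and 0.177 CPM. In neuron- or progenitor-like cells the Müller list had 16 of 25 higher and 2 lower (median 1.03), the Notch list 6 of 11 higher and 1 lower, and the actin list 0 higher and 16 lower of 32 (median -0.59). The neuronal list had 1 of 27 higher and 14 lower in neuron- or progenitor-like cells (median -0.62). In all, 18.4% of genes were higher and 21.1% lower there. In fibroblast-like cells these lists had medians of 0.18 (Müller) and -0.04 (Notch). In microglia-like cells the Müller list had 6 of 15 higher and 1 lower (median 0.46), where 18.2% of all genes were higher and 13.8% lower. Rlbp1 also had 13 UMIs labelled triple and 0 in the double library in microglia-like cells, which should lack it, and the part of free RNA in the values of small classes was not tested. The p53 list had medians below 0 in astrocyte-like (-0.45), pericyte-like (-0.44), neuron-like (-0.45) and fibroblast-like cells (-0.16) and above 0 in microglia-like cells (0.09).

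A small set of genes differed at least 2-fold in every class. Of 3924 genes measured in all 6 classes, 2 (0.051%) were at least 2-fold higher labelled triple in each, Mpst and Spag7, and 0 at least 2-fold lower in each. By sign alone, 351 were higher and 332 lower in every class. Mpst, a mitochondrial sulfur transferase (chr15:78406416-78414013), stood at 81.7 CPM (75.9 to 87.7) in Müller-like cells labelled triple and 20.9 CPM (17.3 to 25.1) in the double library, and between 22.8 and 29.4 CPM in the other 4 libraries. Its log2 ratios were 1.74 in Müller-like, 1.97 in astrocyte-like, 1.08 in fibroblast-like, 1.78 in pericyte-like, 1.77 in microglia-like and 1.36 in neuron-like cells. Spag7 stood at 23.0 and 4.97 CPM with 3.60 to 7.47 CPM elsewhere, Pigt, a subunit of the GPI transamidase, at 45.0 and 12.8 CPM, Dtx3 at 47.8 and 11.7 CPM and the splicing-related gene Scaf1 at 27.6 and 7.81 CPM. Of the 10 genes named as highest in every class, 8 stood apart in Müller-like cells labelled triple. They were 1.5-fold or more higher there than in each of the 5 other libraries, the one labelled miR-124 included (1.85% of all genes were). Since these 10 genes were chosen by this same contrast, nothing is read from the excess. Eno1, the glycolytic enolase gene, at 1877 and 287 CPM, has a near-identical copy in the mouse genome, and its counts are uncertain for that reason.

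Of the 10 named as lowest in every class, Wdr89 stood at 21.0 and 57.1 CPM in Müller-like cells with 47.4 to 64.5 CPM in the other 4 libraries, and its log2 ratio lay between -0.89 and -1.83 over the 6 classes. Rdh10, a retinol dehydrogenase, stood at 364 and 970 CPM, the cholesterol exporter Abca1 at 37.5 and 122 CPM, the lysosomal protease Ctsc at 66.4 and 215 CPM, and Ivns1abp at 76.2 and 349 CPM. Of these 10, 5 were 1.5-fold or more lower in the library labelled triple than in each other library (1.69% of all genes were). In the double library 0 were as much higher than in each other one (0.903% of all genes were). The 10 genes were chosen by this same contrast, so nothing is read from these counts. Treatment and library cannot be told apart in these values.

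**Figure D5:**
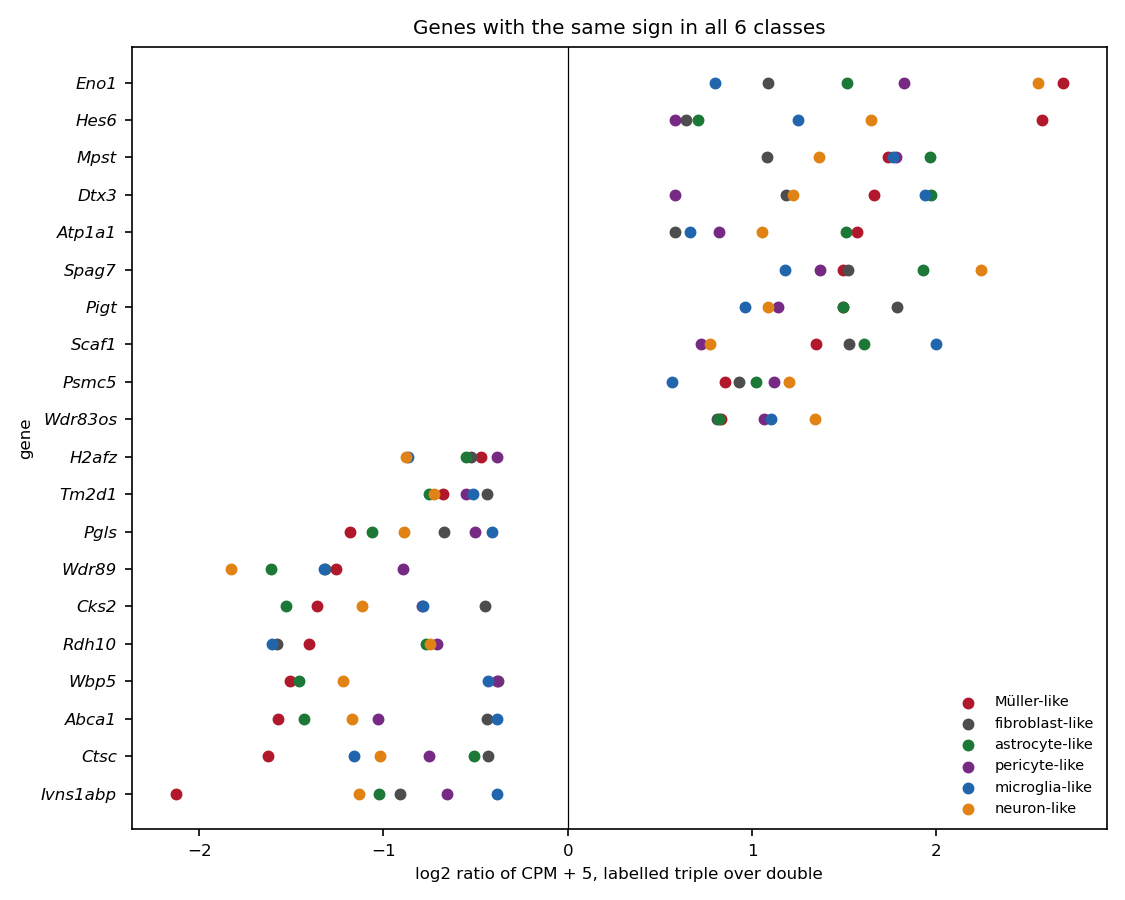
Log2 ratio (labelled triple over double, x axis) in each of 6 classes (coloured points) for the 10 genes highest and the 10 lowest in every class (rows). All 6 points of each gene lie on the same side of 0, and Mpst and Spag7 lie at 1 or more in every class.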

How the data were processed

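Single-cell RNA was measured with 10x Genomics V2 chemistry in 6 libraries, 1 per treatment. The deposited matrices hold whole UMI counts per gene and cell; the submitters' processing notes name Cell Ranger 2, Seurat 2 and mm10, and no further step of the authors is known from the labels. Because the double library's matrix ends early, its last, incomplete cell and all later ones are not analysed here. Library totals read were 11804176 UMIs (double) and 22705495 UMIs (labelled triple).

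Cells were kept from 500 detected genes upwards and up to a mitochondrial share of 10%. With scanpy 1.11.5, doublets called by Scrublet in each library were left out, counts were log-normalised, and 2000 variable genes, 30 principal components and 15 neighbours gave Leiden clusters at resolution 0.6 over all 6 libraries with no integration. A cluster was named "-like" from marker genes. Differences from any published cell types may come from these rebuilt names. Counts were summed per library and class, scaled to CPM, and compared as log2 of (CPM + 5). Genes needed 20 CPM in 1 of the libraries. Intervals are exact 95% Poisson (levels), conditional binomial (ratios, without the pseudocount) and Clopper-Pearson (shares). UMIs of 1 cell are not independent samples of a treatment, so they cover counting error only. To compare shares of cells with a UMI, cells were thinned to 2000 UMIs, leaving out 51 Müller-like cells labelled triple and 157 of the double library.

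With 1 library a side no test was run. Named genes were the 15 highest and 15 lowest in Müller-like cells by the interval bound nearest to no difference, the 10 highest and 10 lowest in every class, the 2 highest and 2 lowest of each of 31 lists, and 29 genes whatever their values. Other list members named in the text were chosen after their values were seen. The members, lists and rule were chosen with earlier results of these data known. The literature target lists come from background knowledge of the field. Sites of miR-124 were not analysed here. A few of the named genes are not reported here. The counting step was tested on simulated data.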

Additional observations from a re-analysis of the deposited data

Results flagged for a closer look

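Among the named genes, 7 pairs of a gene and a class differed at least 2-fold one way in Müller-like cells and at least 2-fold the other way in another class, with the counting interval of the second ratio leaving out no difference. The difference between classes was not tested, since each treatment had 1 library. In pericyte- or smooth-muscle-like cells Acta2 had a log2 ratio of 1.01 (14439.7 CPM labelled triple and 7153 in the double library) where Müller-like cells had -2.59. Microglia- or macrophage-like cells had Gpnmb, a lysosomal membrane glycoprotein, at 1.19 (2218 and 967 CPM), the class I histocompatibility gene H2-D1 at 1.12 (955 and 435 CPM), Lmna at 1.12 (70 and 12 UMIs) and Ccnd2 at 1.02 (75 and 14 UMIs), where Müller-like cells had -2.34, -1.96, -1.12 and -1.54. Car2 stood at 1.05 in astrocyte-like cells (60 and 12 UMIs) and at -1.10 in Müller-like cells. Serpina3n stood at -1.55 in neuron- or progenitor-like cells, from 3 and 10 UMIs with a counting interval of -4.55 to -0.0971, and at 1.58 in Müller-like cells.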

How the results depend on the processing

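Of 2268 pairs of a named gene and an alternative setting (162 genes, 14 alternatives), 1732 stayed near their value, 512 moved (120 of them away from 0) and 24 changed sign, in 18 genes. Of 434 pairs of a list and an alternative, 235 stayed, 182 moved and 17 changed sign. The median of all genes moved from 0.0769 to -0.019 with median-of-ratios scaling. The cause of each change was not tested, except that a larger pseudocount or higher filter leaves fewer genes past a fold by construction. Values below are log2 unless given as counts or percentages, and site values are the overall difference followed by its mean over UTR length bins (0.253 and 0.158 for miR-25, 0.053 and -0.0777 for let-7 as reported).

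With 8-mer sites only, miR-25 gave 0.372 and 0.434, and let-7 -0.0143 and -0.107. A pseudocount of 1 CPM gave 0.284 and 0.172 for miR-25. A pseudocount of 20 CPM gave 0.192 and 0.112 for miR-25 and 0.0322 and -0.0629 for let-7, 276 genes higher and 209 lower in Müller-like cells, 115 and 59 over all kept cells, and 5 lists at or below -0.5 in place of 8. With no filter on level, miR-25 gave 0.109 and 0.0633, let-7 0.0216 and -0.032, lists at or below -0.5 numbered 3, and medians changed sign for intermediate filaments (0.0313), reactive gliosis (0.0297) and cell cycle (-0.019). A filter of 50 CPM left 339 genes higher in Müller-like cells and 132 over all kept cells, with 0.321 and 0.121 for miR-25 and 0.114 and -0.035 for let-7. Only cells labelled triple within the barcode range read for the double library gave -0.0871 for let-7 within bins.

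At Leiden resolution 0.3 the pericyte-like share labelled triple was 6.99% and the neuron-like one 0.785%. At 1.0 the Müller-like share of the double library was 27.9% and the neuron-like share labelled triple 1.25%, miR-25 site genes gave 0.243, and Hes1 (-0.00819), Col18a1 (-0.0247) and Il33 (-0.189) changed sign. With at most 5% mitochondrial UMIs the shares (labelled triple, then double) were 19.3% and 19.6% Müller-like, 43.4% and 50.9% fibroblast-like, 13.0% and 13.3% astrocyte-like, 9.98% and 8.35% pericyte-like and 4.48% and 4.79% microglia-like and 1.75% and 1.0% neuron-like. That setting left 110 genes higher and 55 lower over all kept cells, gave let-7 0.0192 and -0.0913, and turned cell cycle (-0.21), Hes1 (-0.00837), Cdk6 (-0.205) and Tpm3 (-0.02).

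Over all kept cells in place of Müller-like cells, 212 genes were higher and 106 lower, 3 lists (6 as reported) had a median of at least 0.5 and 1 at most -0.5, miR-25 gave 0.138 and 0.109 and let-7 -0.0073 and -0.0511. Signs changed for retinoid genes (0.0827), reactive gliosis (0.00893), neuronal (-0.0961), collagen (0.0652), Wnt modulators (0.074), Igf (0.0224), Hes1 (-0.0231), Npr3 (0.473), Col18a1 (-0.107), Il33 (-0.0982), P4ha1 (0.0735) and Wls (0.0589). In the Lcn2-led cluster alone, an alternative chosen after seeing the data, 116 genes were higher and 84 lower, 3 lists had a median of at least 0.5 and 2 at most -0.5, miR-25 gave 0.144 and 0.123 and let-7 -0.0232 and -0.106. There the sign changed for reactive gliosis (0.143), collagen (0.0173), Wnt modulators (0.00694), unfolded protein (0.0443), interferon (0.097), miRNA processing (-0.175) and miR-124 targets (0.0151), and for Pax6 (-0.13), Cdk6 (-0.0807), Lamc1 (0.339), Ccnd1 (0.0492), Stmn2 (0.474), Itgb1 (0.287), Il33 (-0.000921), Lhx2 (0.0197), Gadd45a (0.0492), Slc6a6 (0.0561), Nupr1 (0.00324) and Grem1 (0.0423).

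No paired analysis was possible because each treatment had 1 library (leaving out a replicate would leave none). Sites of miR-124 were not run. Depth limits the small classes, where the median counting interval exceeds a 2-fold difference.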

Other observations

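Ribosomal protein genes, which were kept out of the named genes, held members that differed in the same direction in every class. Of 78 measured in Müller-like cells 5 (6.41%) were at least 1.5-fold higher labelled triple and 9 (11.5%) lower, with a median log2 ratio of -0.25. Both shares were below those of all genes, 18.6% higher and 13.4% lower. Rpl23a stood at 61.8 CPM labelled triple and 20.9 CPM in the double library and between 49.96 and 58.4 CPM in the other 4 libraries, so the double library was the low one. Its log2 ratios in the other classes ran from 0.67 in neuron-like to 2.16 in pericyte-like cells. Rpl10 stood at 21.5 and 69.4 CPM with 32.4 to 45.3 CPM elsewhere, and Rpl6l at 21.0 and 71.5 CPM with 32.8 to 43.4 CPM elsewhere. Both had log2 ratios below 0 in all 6 classes. These genes have many near-identical pseudogenes, and their counts are uncertain where reads were split among copies.

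Müller-like cells labelled triple also carried more of 2 receptor genes better known from blood vessels, Kdr at 1047 and 302 CPM and Flt1 at 375 and 56.1 CPM, while the endothelial genes Cdh5, Cldn5 and Tie1 had 0 UMIs in both libraries.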
